A study of Homo sapiens with 20 samples.

Results

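Chemokine ligands and receptors were followed across 5 lines of the melanoma cell line WM793. They were taken by symbol, as each row of the expression table annotated to a CXCL, CCL, XCL, CXCR, CCR, XCR or ACKR gene with a number, or to CX3CL1 or CX3CR1, and they came to 67 of the 18708 rows. Of these, 52 rows carried a single symbol, for 51 genes, and 15 rows carried several. CCR2 had a pair of rows, and its row 4047162 was left out of the model because its mean was lower, with line means between 3.51 and 3.64. The 66 rows that remained, 45 for ligands and 21 for receptors, stand among 18385 features tested.

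WM793 is an established line from a vertical growth phase melanoma. The lines were, per the labels, NME1-E5A, NME1-K12Q and NME1-P96S, made to overexpress NME1 with the amino acid change in their name, NME1-wild-type, made to overexpress the unchanged protein, and Parent, the line they were made from. NME1 transfers phosphate between nucleotides and is known for suppressing metastasis. All were cultured for 3 days to 70% to 80% confluence in the same medium. Each of the 5 lines had 4 Affymetrix exon arrays, which the design calls technical replicates, so a construct is represented by 1 line and the p-values measure the spread between arrays only. An empty-vector line was not analysed here, and the promoter that drives NME1 was not given in the sources used here. In bulk RNA, fewer expressing cells and less RNA per cell cannot be told apart.

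Chemokines are small secreted proteins that guide cells along a gradient. Their names follow the spacing of the first cysteines (CXC, CC, XC and CX3C), and most signal through G protein-coupled receptors named by the same classes. Atypical receptors (ACKR) bind chemokines without the usual G protein signal, and most remove them. Melanoma cells are known to secrete neutrophil- and monocyte-attracting chemokines such as CXCL1, CXCL8 and CCL2, while CXCL9, CXCL10 and CXCL11, the ligands of CXCR3 on T cells, are typically induced by interferon gamma.

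CXCL9, CXCL10 and CXCL11 lie close together on chromosome 4, in the RefSeq order SDAD1, CXCL9, ART3, CXCL10, CXCL11, NUP54 and SCARB2. The 250 bases before each gene's start are shown because CXCL11 passed the test between lines and its closest relatives did not. They are RefSeq sequences of GRCh38.p14, minus strand, 5′ to 3′, with capitals marking matches to an NF-kappa-B consensus or to the interferon-response core GAAANNGAAA, on either strand.
CXCL11: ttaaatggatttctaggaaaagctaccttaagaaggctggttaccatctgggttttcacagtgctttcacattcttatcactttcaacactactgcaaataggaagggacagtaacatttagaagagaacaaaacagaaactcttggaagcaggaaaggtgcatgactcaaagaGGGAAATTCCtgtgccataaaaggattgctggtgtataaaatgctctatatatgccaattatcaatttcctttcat
CXCL10: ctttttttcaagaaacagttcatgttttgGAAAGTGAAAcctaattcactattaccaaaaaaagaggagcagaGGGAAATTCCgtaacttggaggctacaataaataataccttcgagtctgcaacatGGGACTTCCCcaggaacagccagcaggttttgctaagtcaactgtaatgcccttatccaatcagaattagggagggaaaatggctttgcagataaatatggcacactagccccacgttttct
CXCL9: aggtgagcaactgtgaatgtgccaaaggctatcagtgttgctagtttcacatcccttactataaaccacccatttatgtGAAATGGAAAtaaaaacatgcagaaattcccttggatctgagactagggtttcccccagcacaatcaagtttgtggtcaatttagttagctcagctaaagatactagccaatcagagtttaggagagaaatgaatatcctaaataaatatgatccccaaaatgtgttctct
They span chr4:76036071-76036320 for CXCL11, chr4:76023498-76023747 for CXCL10 and chr4:76007510-76007759 for CXCL9. CXCL11 has 1 match to the NF-kappa-B consensus, beginning at position -76 from the start, and none to the interferon-response core. CXCL10 has NF-kappa-B matches from -177 and -122, the second of which reads as a match on both strands, and an interferon-response match from -221. CXCL9 has 1 interferon-response match, from -171. The motifs were chosen after the sequences were seen. Only these exact patterns were searched, so variants of either element would have been missed. Over the same window, the NF-kappa-B consensus was found in 9.96% of 35116 RefSeq promoters and the interferon-response core in 3.02%. These shares are counted over promoters, whereas the chemokine genes are counted once per symbol, so the units differ. Of the 66 gene symbols in the chemokine rows, 44 had a promoter in the table, 11 of these with the NF-kappa-B consensus (CXCL1, CXCL2, CXCL3, CXCL5, CXCL6, CXCL10, CXCL11, CCL1, CCL20, CCL22 and ACKR5) and 4 with the interferon-response core (CXCL9, CXCL10, CCR6 and XCR1).

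The expression values are log2 values from RMA, the authors' summary over the probes of a row. Rows differ in how their probes bind, so levels are set side by side within a row only. Array medians lay between 6.27 and 6.50 and interquartile ranges between 2.19 and 3.16, and the spread was narrowest in replicate 2 of Parent, replicate 3 of NME1-P96S and replicate 2 of NME1-K12Q. The row of NME1, which it shares with the NME1-NME2 readthrough transcript, averaged 9.78, 9.75, 9.78 and 9.81 in NME1-E5A, NME1-K12Q, NME1-P96S and NME1-wild-type, against 9.53 in Parent. Its Parent arrays (9.37 to 9.74) overlapped with those of NME1-E5A (from 9.69), NME1-K12Q (from 9.45) and NME1-P96S (from 9.63), so this row does not clearly show the overexpression. Of the 6 melanocyte lineage genes measured, SOX10 averaged 9.38 and S100B 8.61 over all arrays. The log2 values of all 6 summed to between 35.1 and 38.2 on single arrays, so SOX10 and S100B do not stand for the list. The melanocyte antigen MLANA had line means between 3.55 and 3.96, and these levels are not compared between the genes. Of the markers listed for leukocytes (13 measured), endothelium (6), fibroblasts (6), keratinocytes and epithelium (5) and melanocytes (6), 0 passed the test between lines. Of the leukocyte markers, PTPRC had the lowest line means (3.25 to 3.34) and CD68 the highest (8.07 to 8.31). The summed leukocyte markers ranged from 60.3 to 74.8 over single arrays, on the log2 scale. The lowest sum was in NME1-P96S and the highest in Parent. These lines also hold the arrays of widest and of narrowest spread, so the range is not read as leukocyte content.

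Few chemokine rows differed between the lines. In a limma F-test over the 5 line means, 2 of the 66 rows passed an adjusted p of 0.05, CXCL11 and ACKR4, beside 0.582% of all features. At an unadjusted p under 0.05 there were 3 rows (4.55%, the third being CCL2), beside 3.29% of all features. The highest and lowest line means of a row lay a median of 0.28 apart for the chemokine rows and 0.23 apart for all features. The distance exceeded 0.5 in 6 chemokine rows (9.09%, against 4.43% of all features) and 1 in CXCL11 alone (1.52%, against 0.354%). CXCL11 had the largest such distance of all 18385 features and stood at rank 31 by the p-value of the F-test. ACKR4 stood at rank 179 by distance and 100 by p-value.

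**Figure D1:**
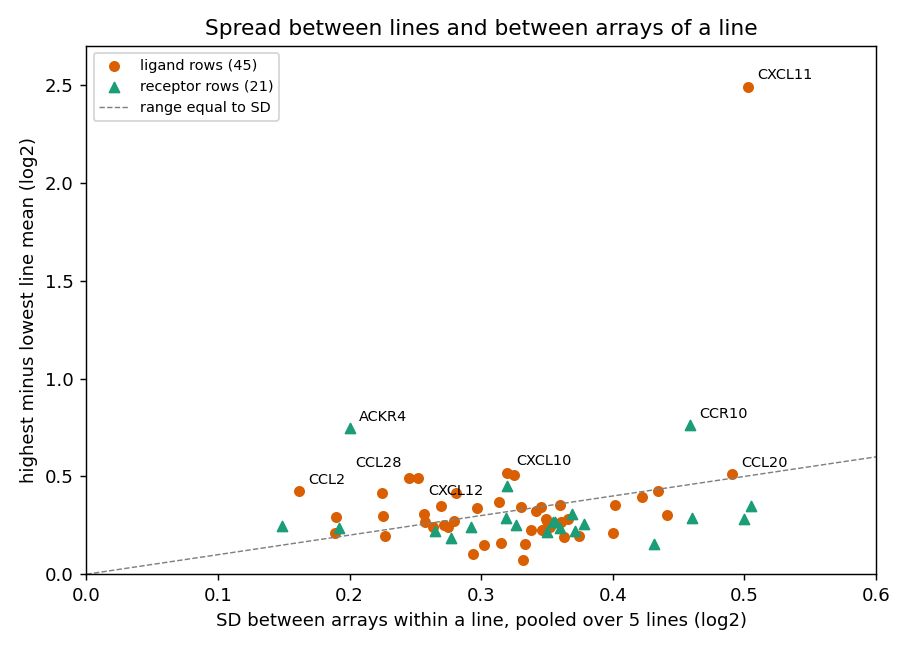
Each point is 1 of the 66 chemokine rows, with the standard deviation between arrays of a line on the x axis and the distance between the highest and lowest line mean on the y axis, both on the log2 scale. CXCL11 stands alone at 2.49, while ACKR4 and CCR10 have similar distances (0.75 and 0.76) at SDs of 0.20 and 0.46.

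Between pairs of lines a row counted as changed when its limma adjusted p was under 0.05 and its fold 1.5 or more. Across the 10 pairs there were 4 such calls, each of them lower and each by CXCL11 or ACKR4. In NME1-E5A against Parent 1 of 66 rows was called, ACKR4, beside 0.218% of all features in either direction and 0.0761% that were lower. In NME1-E5A against NME1-wild-type it was again 1, ACKR4, beside 0.207% and 0.103%. CXCL11 was the 1 row called in NME1-K12Q against NME1-wild-type, beside 0.0381% and 0.0326%, and the 1 row called in NME1-P96S against NME1-wild-type, beside 0.201% and 0.131%. These comparisons share the NME1-wild-type or NME1-E5A arrays with each other.

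In the remaining 6 pairs, 0 of 66 rows were called by limma, and the counts at an unadjusted limma p under 0.05 are given with them. NME1-K12Q against Parent (0.00544% of all features called) had 4 such rows (6.06%) beside 1.48% of all features. NME1-P96S against Parent (0.103% called) had 2 (3.03%) beside 3.14%. NME1-wild-type against Parent (0.0326% called) had 3 (4.55%) beside 1.38%. NME1-E5A against NME1-K12Q (0.169% called) had 5 (7.58%) beside 2.78%. NME1-E5A against NME1-P96S (0.239% called) had 2 (3.03%) beside 4.11%, and NME1-K12Q against NME1-P96S (0.277% called) had 4 (6.06%) beside 3.12%. Of the 4 pairs with a call, NME1-E5A against Parent had 2 such rows (3.03%, beside 2.98% of all features). Against NME1-wild-type there were 3 (4.55%, beside 2.4%) for NME1-E5A, 4 (6.06%, beside 1.29%) for NME1-K12Q and 3 (4.55%, beside 3.39%) for NME1-P96S.

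CXCL11, the CXCR3 ligand of highest affinity, fell 5.63-fold in NME1-K12Q and 2.93-fold in NME1-P96S relative to NME1-wild-type. The 4 arrays of NME1-E5A gave 6.67, 6.10, 6.03 and 5.21, those of NME1-K12Q 4.16, 4.46, 4.82 and 5.10, and those of NME1-P96S 5.75, 6.06, 4.94 and 5.56. The NME1-wild-type arrays gave 7.79, 7.68, 6.61 and 6.43, and the Parent arrays 6.17, 6.22, 6.12 and 6.34. Every NME1-wild-type array lay above every array of NME1-K12Q, NME1-P96S and Parent. However, 1 array of NME1-E5A (6.67) lay above the NME1-wild-type arrays of 6.61 and 6.43. NME1-K12Q was lowest, below every array of NME1-E5A, NME1-wild-type and Parent, and its highest array overlapped with the lowest of NME1-P96S.

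The means were 4.64 ± 0.408 in NME1-K12Q and 7.13 ± 0.708 in NME1-wild-type (SD, n = 4 each), a difference of -2.49 on the log2 scale (SE 0.32, limma adjusted p = 0.000915). NME1-P96S averaged 5.58 ± 0.472, a difference of -1.55 from NME1-wild-type (95% interval -2.22 to -0.88, limma adjusted p = 0.047). An exact two-sided permutation test gave p = 0.0286 for both, the smallest that 4 against 4 arrays can give, and 0.0286 after adjustment over the 4 calls tested. It was run only on pairs already called from these same arrays. Its p-values are therefore no independent support, and the adjustment does not cover the comparisons they were picked from. The NME1-P96S call was lost when any of 16 single arrays was left out, with differences from -1.72 to -1.33 and adjusted p-values between 0.0512 and 0.258. These were all 4 arrays of NME1-K12Q and of NME1-P96S, replicates 2 and 3 of NME1-E5A, replicates 1, 2 and 3 of NME1-wild-type, and replicates 1, 3 and 4 of Parent. The NME1-K12Q call held without any single array, with adjusted p-values between 0.000462 and 0.00881.

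Against Parent the CXCL11 differences did not pass. The difference of NME1-wild-type from Parent was 0.92 (95% interval 0.25 to 1.58, limma adjusted p = 0.997). NME1-K12Q differed by -1.58 (-2.25 to -0.91, limma adjusted p = 0.198), NME1-P96S by -0.64 (-1.30 to 0.03, limma adjusted p = 0.85) and NME1-E5A by -0.21 (-0.88 to 0.46, limma adjusted p = 1.00). Parent lay between NME1-wild-type and NME1-K12Q, with a mean of 6.21 ± 0.0937 and the smallest spread between arrays of the 5 lines.

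NME1-E5A, at 6.001 ± 0.603, differed from NME1-K12Q by 1.37 (95% interval 0.70 to 2.03, limma adjusted p = 0.143) and from NME1-wild-type by -1.13 (-1.80 to -0.46, limma adjusted p = 0.422). Without NME1-E5A replicate 4, its lowest array, the difference from NME1-K12Q was 1.63 and was called (limma adjusted p = 0.0454). NME1-E5A differed from NME1-P96S by 0.42 (-0.24 to 1.09) and NME1-K12Q differed from NME1-P96S by -0.94 (-1.61 to -0.27, limma adjusted p = 0.652). Among the 4 arrays of NME1-wild-type, replicates 1 and 2 lay over 1 unit above replicates 3 and 4.

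**Figure D2:**
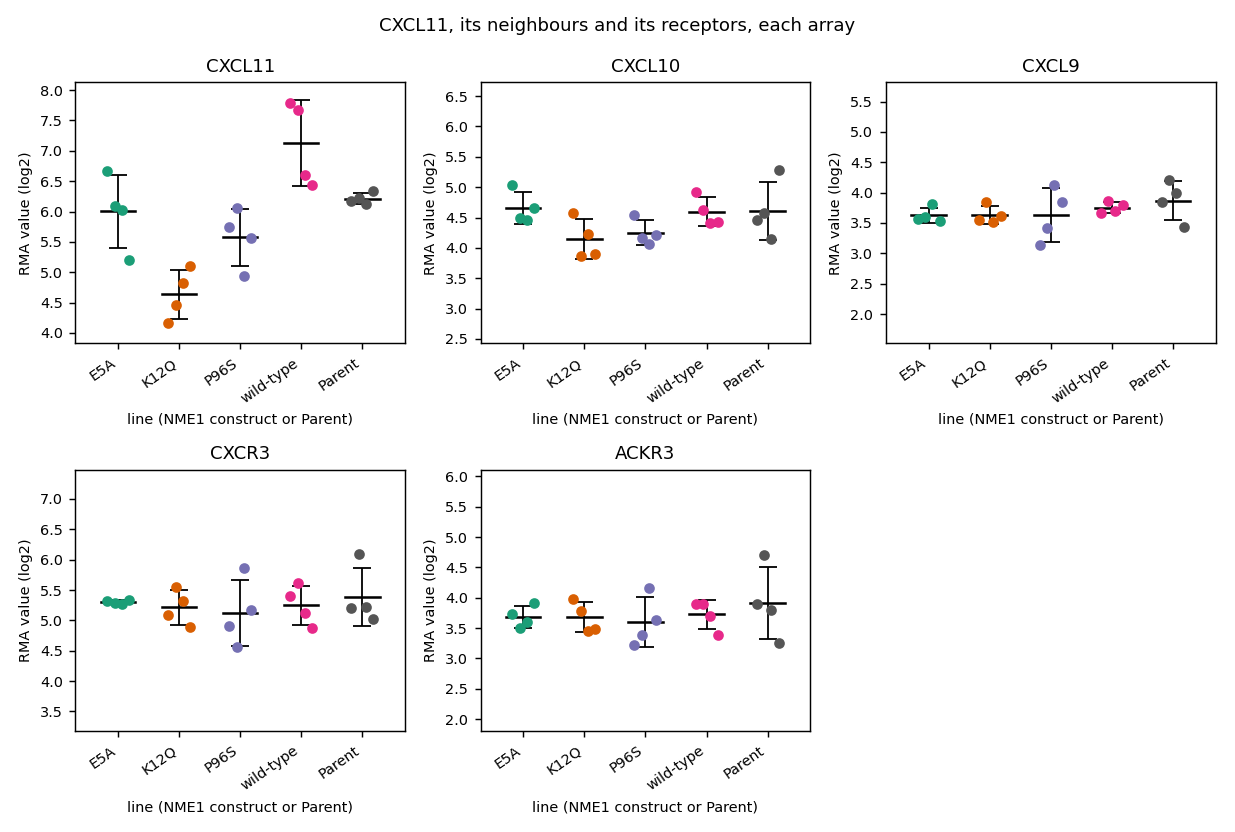
Each point is 1 array, the bar is the mean of 4 arrays and the whisker its SD, in log2 RMA values, for CXCL11, CXCL10, CXCL9, CXCR3 and ACKR3. All panels span the same number of log2 units, and CXCL11 is the panel that passed the F-test, with NME1-wild-type highest and NME1-K12Q lowest.

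CXCL10, which shares CXCR3 with CXCL11, gave 5.04, 4.49, 4.46 and 4.65 in NME1-E5A, 4.57, 3.87, 4.23 and 3.89 in NME1-K12Q, and 4.54, 4.17, 4.07 and 4.22 in NME1-P96S. It gave 4.93, 4.62, 4.40 and 4.43 in NME1-wild-type and 4.45, 4.57, 4.15 and 5.28 in Parent. Its lowest means were those of NME1-K12Q and NME1-P96S, as for CXCL11, but the arrays of all 5 lines overlapped in part. The difference of NME1-K12Q from NME1-wild-type was -0.45 (95% interval -0.90 to -0.01, limma adjusted p = 1.00), and the row did not pass the F-test (unadjusted p = 0.0746).

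CXCL9, the third ligand of CXCR3, had line means between 3.63 and 3.87, a distance of 0.24. The receptor CXCR3 had means of 5.30, 5.21, 5.12 and 5.25 in NME1-E5A, NME1-K12Q, NME1-P96S and NME1-wild-type, against 5.38 in Parent. ACKR3, an atypical receptor that binds CXCL11 and CXCL12, had means of 3.69, 3.68, 3.60 and 3.72, against 3.91 in Parent. Neither receptor passed, and for both the distance between line means was smaller than the SD between arrays. The genes beside CXCL11 that are not chemokines (ART3, SDAD1, NUP54 and SCARB2, chosen after its values were seen) differed by -0.39 to 0.37 over the 10 pairs, with no limma adjusted p below 0.85.

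ACKR4 removes CCL19, CCL21 and CCL25, the ligands of the homing receptors CCR7 and CCR9, from the surroundings of the cell. It fell 1.66-fold in NME1-E5A relative to Parent and 1.68-fold relative to NME1-wild-type. Its line means, 4.13 to 4.88, were low, below the lowest array median of 6.27. Its arrays gave 4.50, 4.00, 3.98 and 4.03 in NME1-E5A, 4.65, 4.26, 4.42 and 4.72 in NME1-K12Q, and 4.47, 4.47, 4.22 and 4.47 in NME1-P96S. They gave 5.07, 5.11, 4.71 and 4.63 in NME1-wild-type and 5.01, 4.67, 4.87 and 4.91 in Parent. NME1-E5A did not overlap with NME1-wild-type or Parent, and its replicate 1 lay among the arrays of NME1-K12Q and above those of NME1-P96S.

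The mean of ACKR4 was 4.13 ± 0.248 in NME1-E5A, against 4.88 ± 0.244 in NME1-wild-type and 4.86 ± 0.142 in Parent (SD, n = 4 each). The differences were -0.73 from Parent (SE 0.15, limma adjusted p = 0.035) and -0.75 from NME1-wild-type (SE 0.15, limma adjusted p = 0.0357). The exact two-sided permutation p was 0.0286 for each, again run only on called pairs and no independent support. The call against Parent was lost without replicate 2, 3 or 4 of NME1-E5A, replicate 1, 3 or 4 of Parent, NME1-K12Q replicate 3 or NME1-P96S replicate 4 (differences from -0.73 to -0.68, adjusted p-values from 0.0532 to 0.187). The call against NME1-wild-type was lost without replicate 2, 3 or 4 of NME1-E5A, replicate 1, 2 or 3 of NME1-wild-type, replicate 2 or 4 of NME1-P96S, NME1-K12Q replicate 3 or Parent replicate 3 (differences from -0.81 to -0.67, adjusted p-values from 0.0505 to 0.198).

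The other mutant lines lay between these groups without passing. NME1-K12Q, at 4.51 ± 0.21, differed from Parent by -0.35 (95% interval -0.66 to -0.05, limma adjusted p = 1.00) and from NME1-wild-type by -0.37 (-0.68 to -0.06, limma adjusted p = 1.00). NME1-P96S, at 4.41 ± 0.125, differed from Parent by -0.45 (-0.76 to -0.14, limma adjusted p = 0.85) and from NME1-wild-type by -0.47 (-0.78 to -0.16, limma adjusted p = 0.558). NME1-wild-type and Parent lay close together, NME1-wild-type minus Parent being 0.02 with an interval of -0.29 to 0.32. NME1-E5A differed from NME1-P96S by -0.28 (-0.59 to 0.03) and from NME1-K12Q by -0.38 (-0.69 to -0.07), and a test of the difference passed for neither. Both ACKR4 and CXCL11 have a mean over all arrays below the median feature, so a filter at that median removes them.

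**Figure D3:**
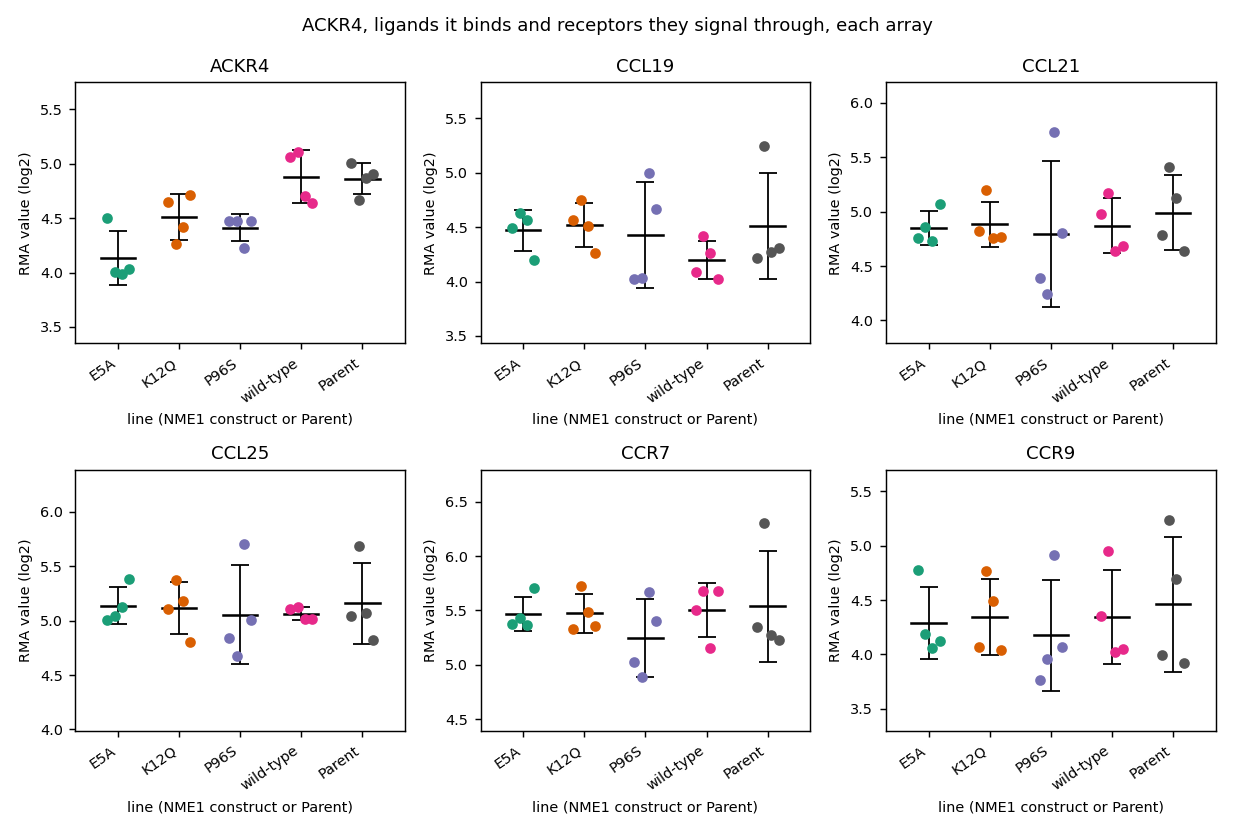
Each point is 1 array, with the mean and SD of 4 arrays as bar and whisker, in log2 RMA values, for ACKR4, its ligands CCL19, CCL21 and CCL25 and the receptors CCR7 and CCR9. The NME1-E5A arrays of ACKR4 lie at 4.50 and below, under all NME1-wild-type and Parent arrays, and in the other 5 panels the lines overlap.

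The ligands that ACKR4 binds did not pass in any pair of lines. CCL19 had means of 4.47, 4.52, 4.43 and 4.20 in NME1-E5A, NME1-K12Q, NME1-P96S and NME1-wild-type, against 4.51 in Parent. CCL21 had line means between 4.79 and 4.99 and CCL25 between 5.06 and 5.16. Their receptors CCR7 (5.25 to 5.54) and CCR9 (4.18 to 4.46) were lowest in NME1-P96S and highest in Parent, by less than the SD between arrays.

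Of the other 4 atypical receptors, none passed. ACKR1, which binds chemokines of both main classes, gave 5.56, 5.71, 5.50 and 5.67 in NME1-E5A, 5.84, 5.54, 5.47 and 5.49 in NME1-K12Q and 5.43, 5.57, 5.83 and 5.51 in NME1-P96S. It gave 5.69, 5.93, 5.70 and 5.55 in NME1-wild-type and 5.74, 6.02, 5.80 and 5.75 in Parent. Parent had the highest mean, but its lowest arrays lay within the range of NME1-K12Q, NME1-P96S and NME1-wild-type. ACKR2, a scavenger of inflammatory CC chemokines, had line means between 4.33 and 4.55, and ACKR5 between 4.96 and 5.11.

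Among the CXC ligands that attract neutrophils through CXCR1 and CXCR2, 0 of 6 rows passed the F-test, with unadjusted p-values of 0.368 or more. Row 2731381, annotated to CXCL1 and CXCL2, had line means between 11.9 and 12.1, highest in NME1-wild-type. CXCL8 had means of 10.4, 10.5, 10.3 and 10.6, against 10.5 in Parent. CXCL2 (7.90 to 8.15) and CXCL3 (7.32 to 7.62) were also highest in NME1-wild-type, where replicates 1 and 2 lay above replicates 3 and 4 for each of these 4 rows. CXCL5 and CXCL6 had distances of 0.15 and 0.16 between line means.

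CCL2, the main attractant of CCR2-bearing monocytes, gave 11.13, 10.83, 10.90 and 10.92 in NME1-E5A, 10.99, 10.92, 11.07 and 11.08 in NME1-K12Q, and 11.59, 11.48, 11.10 and 11.25 in NME1-P96S. It gave 11.45, 11.60, 11.15 and 11.29 in NME1-wild-type and 11.35, 11.02, 11.27 and 11.20 in Parent. NME1-E5A and NME1-K12Q lay below all NME1-wild-type arrays, and they overlapped with Parent through Parent replicate 2. NME1-E5A differed from NME1-wild-type by -0.43 (95% interval -0.69 to -0.16, limma adjusted p = 0.529) and NME1-K12Q by -0.36 (-0.62 to -0.09, limma adjusted p = 1.00). CCL2 had an unadjusted p of 0.00851 in the F-test and an adjusted p of 0.551.

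The receptor CCR2 (row 2620842) gave 3.81, 4.10, 3.76 and 3.94 in NME1-E5A, 4.03, 4.40, 3.91 and 3.79 in NME1-K12Q, and 3.65, 3.17, 4.33 and 3.71 in NME1-P96S. It gave 3.56, 3.70, 3.53 and 3.59 in NME1-wild-type and 3.87, 4.60, 4.14 and 3.58 in Parent. NME1-wild-type had the lowest mean and the closest arrays. The difference of NME1-wild-type from Parent was -0.45 (95% interval -0.89 to -0.01, limma adjusted p = 0.997), and it was -0.27 without the 3 arrays of narrowest spread. The other CCR2 row, 4047162, left out of the model, did not show this pattern. Its mean was 3.59 ± 0.431 in NME1-wild-type, against 3.64 ± 0.413 in Parent (SD), and was lowest in NME1-E5A (3.51).

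CCL8, another ligand of CCR2, gave 3.67, 3.17, 2.94 and 3.65 in NME1-E5A, 3.20, 3.39, 3.13 and 3.16 in NME1-K12Q, and 3.07, 3.18, 4.05 and 3.50 in NME1-P96S. It gave 3.13, 3.19, 2.93 and 3.09 in NME1-wild-type and 3.28, 4.22, 3.49 and 3.37 in Parent. NME1-wild-type lay below all Parent arrays by -0.51 on average (95% interval -0.96 to -0.05, limma adjusted p = 0.997), and by -0.30 without the 3 arrays of narrowest spread. CCL7 (3.71 to 4.05) and the eosinophil-attracting CCL11 (4.62 to 4.85), CCL24 (4.50 to 4.80) and CCL26 (3.78 to 4.21) did not pass.

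**Figure D4:**
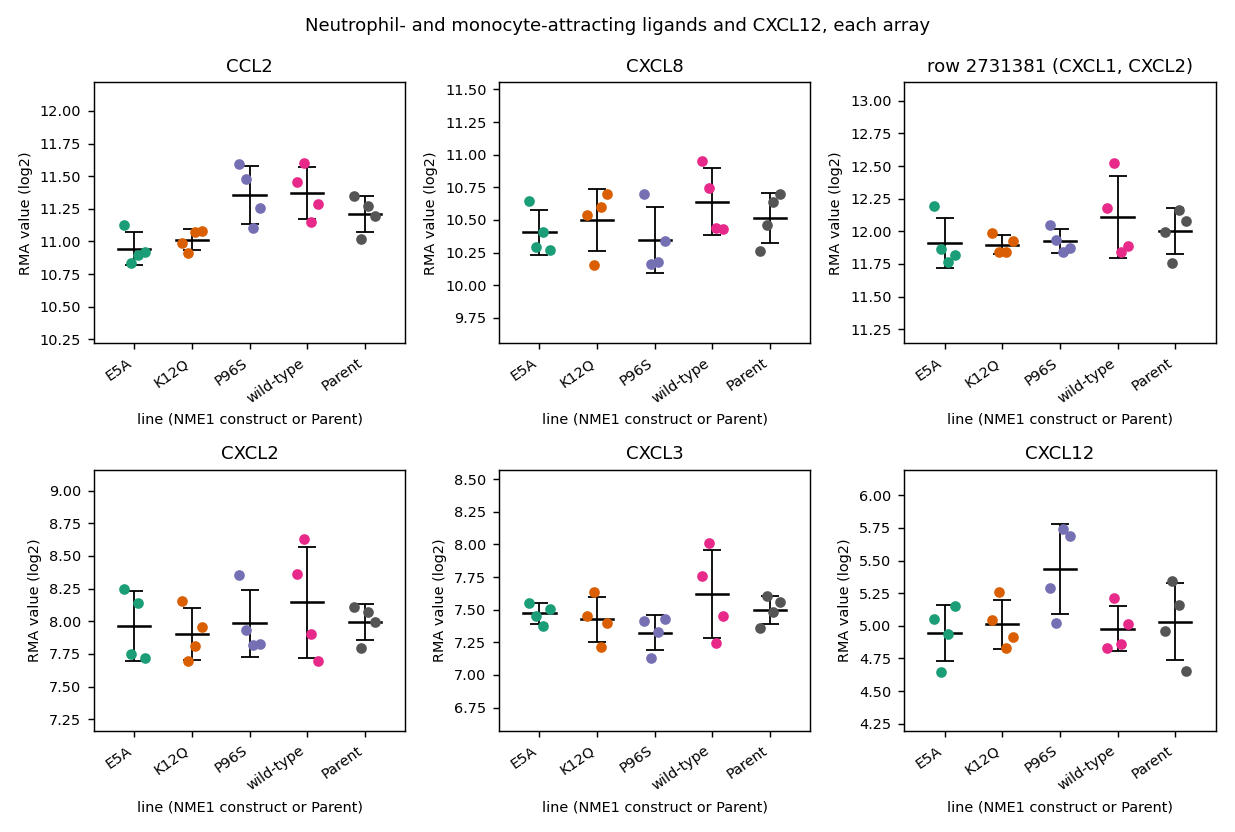
Each point is 1 array, with the mean and SD of 4 arrays as bar and whisker, in log2 RMA values, for CCL2, CXCL8, row 2731381, CXCL2, CXCL3 and CXCL12, all panels spanning the same number of log2 units. In CCL2 the NME1-E5A and NME1-K12Q arrays (10.83 to 11.13) lie below those of NME1-wild-type (11.15 to 11.60), and in CXCL12 NME1-P96S has the highest mean.

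CXCL12, the ligand of CXCR4, gave 5.05, 4.65, 4.94 and 5.15 in NME1-E5A, 5.04, 5.26, 4.83 and 4.91 in NME1-K12Q, and 5.29, 5.02, 5.74 and 5.69 in NME1-P96S. It gave 4.83, 5.21, 4.86 and 5.01 in NME1-wild-type and 4.96, 5.35, 5.16 and 4.66 in Parent. Replicates 3 and 4 of NME1-P96S were the highest of all arrays, and its other arrays lay within the range of Parent. NME1-P96S differed from Parent by 0.41 (95% interval 0.04 to 0.77, limma adjusted p = 0.85) and from NME1-wild-type by 0.46 (0.09 to 0.82, limma adjusted p = 0.999). With the interquartile range of each array in the model, the F-test called CXCL12 as well. Its receptor CXCR4 had line means between 3.88 and 4.06.

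CXCL14, an epithelial chemokine, gave 6.18, 6.22, 6.35 and 6.35 in NME1-E5A, 5.84, 6.22, 5.69 and 5.67 in NME1-K12Q, and 5.74, 5.71, 6.58 and 5.73 in NME1-P96S. It gave 6.21, 5.93, 5.67 and 5.86 in NME1-wild-type and 6.02, 6.25, 6.33 and 5.66 in Parent. NME1-E5A had the highest mean and overlapped with each other line, and NME1-P96S replicate 3 exceeded every other array. CXCL13 (3.36 to 3.70), CXCL16 (5.56 to 5.76) and CXCL17 (4.58 to 4.92) did not pass, nor did their receptors CXCR5 (3.98 to 4.20, for CXCL13) and CXCR6 (4.02 to 4.24, for CXCL16).

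CCL28, a mucosal chemokine that acts on CCR10, gave 6.75, 6.19, 6.59 and 6.42 in NME1-E5A, 6.17, 5.78, 5.85 and 6.18 in NME1-K12Q, and 6.55, 6.30, 5.94 and 6.13 in NME1-P96S. It gave 6.33, 6.18, 5.89 and 6.17 in NME1-wild-type and 6.19, 5.73, 5.94 and 6.46 in Parent. NME1-E5A lay above all NME1-K12Q arrays and overlapped with the others. It differed from NME1-K12Q by 0.49 (95% interval 0.14 to 0.85, limma adjusted p = 0.915) and from Parent by 0.40 (0.05 to 0.76, limma adjusted p = 1.00).

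Its receptor CCR10 gave 5.81, 5.22, 5.42 and 4.94 in NME1-E5A, 5.42, 5.16, 5.14 and 5.00 in NME1-K12Q, and 5.87, 5.21, 6.08 and 5.69 in NME1-P96S. It gave 5.90, 6.13, 5.42 and 5.67 in NME1-wild-type and 5.90, 7.02, 5.79 and 5.06 in Parent. Parent had the widest range and overlapped with each other line, with its replicate 2 the highest of all arrays. NME1-K12Q differed from Parent by -0.76 (95% interval -1.38 to -0.15, limma adjusted p = 1.00), and by -0.40 without the 3 arrays of narrowest spread, which include Parent replicate 2.

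CCL18, a chemokine of dendritic cells and macrophages, gave 4.58, 4.48, 4.43 and 4.94 in NME1-E5A, 4.67, 5.00, 5.02 and 4.68 in NME1-K12Q, and 4.36, 4.28, 4.88 and 4.20 in NME1-P96S. It gave 4.84, 4.66, 4.66 and 4.58 in NME1-wild-type and 4.77, 4.87, 4.57 and 4.35 in Parent. NME1-K12Q had the highest mean and overlapped with NME1-P96S through replicate 3 of NME1-P96S alone. The difference of NME1-K12Q from NME1-P96S was 0.41 (95% interval 0.08 to 0.75, limma adjusted p = 1.00).

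The remaining ligands and receptors are given by group. In the CCL3 to CCL5 group, whose members attract T cells and macrophages through CCR1 and other receptors, 0 of 9 rows passed, and in 6 of them the line means lay closer together than the SD between arrays. Only 2 of these 9 rows carry a single symbol, CCL3 (4.90 to 5.17) and CCL5 (5.24 to 5.55), since the others are shared by near-identical copies of CCL3 and CCL4. Of the 13 rows of other CC ligands 0 passed and 10 had such small distances. CCL20, the ligand of CCR6, had the largest distance among them, with 5.07 ± 0.541, 4.95 ± 0.396, 4.89 ± 0.408 and 5.40 ± 0.665 in NME1-E5A, NME1-K12Q, NME1-P96S and NME1-wild-type, against 5.09 ± 0.38 in Parent (SD, n = 4 each). Its NME1-wild-type replicates 1 and 2 gave 5.78 and 6.14, and replicates 3 and 4 gave 4.92 and 4.76.

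CCL17 and CCL22, which act on CCR4 and attract regulatory and helper T cells, had line means of 5.56 to 5.91 and 4.98 to 5.26, and CCR4 itself 4.10 to 4.35. CX3CL1, a membrane-bound chemokine, had line means of 5.53 to 5.88, and its receptor CX3CR1 3.77 to 4.01. The rows of XCL1 and XCL2, which share probes between near-identical genes, and their receptor XCR1 (5.08 to 5.43) did not pass. Neither did the 6 rows of CXC receptors, all of which had line means closer together than the SD between arrays, nor CCR1 (4.23 to 4.51) or CCR6 (3.99 to 4.23). Row 2936564, annotated to CEP43 as well as CCR6, is counted with the CC receptor rows by that annotation, and its level is assigned to neither gene.

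**Figure D5:**
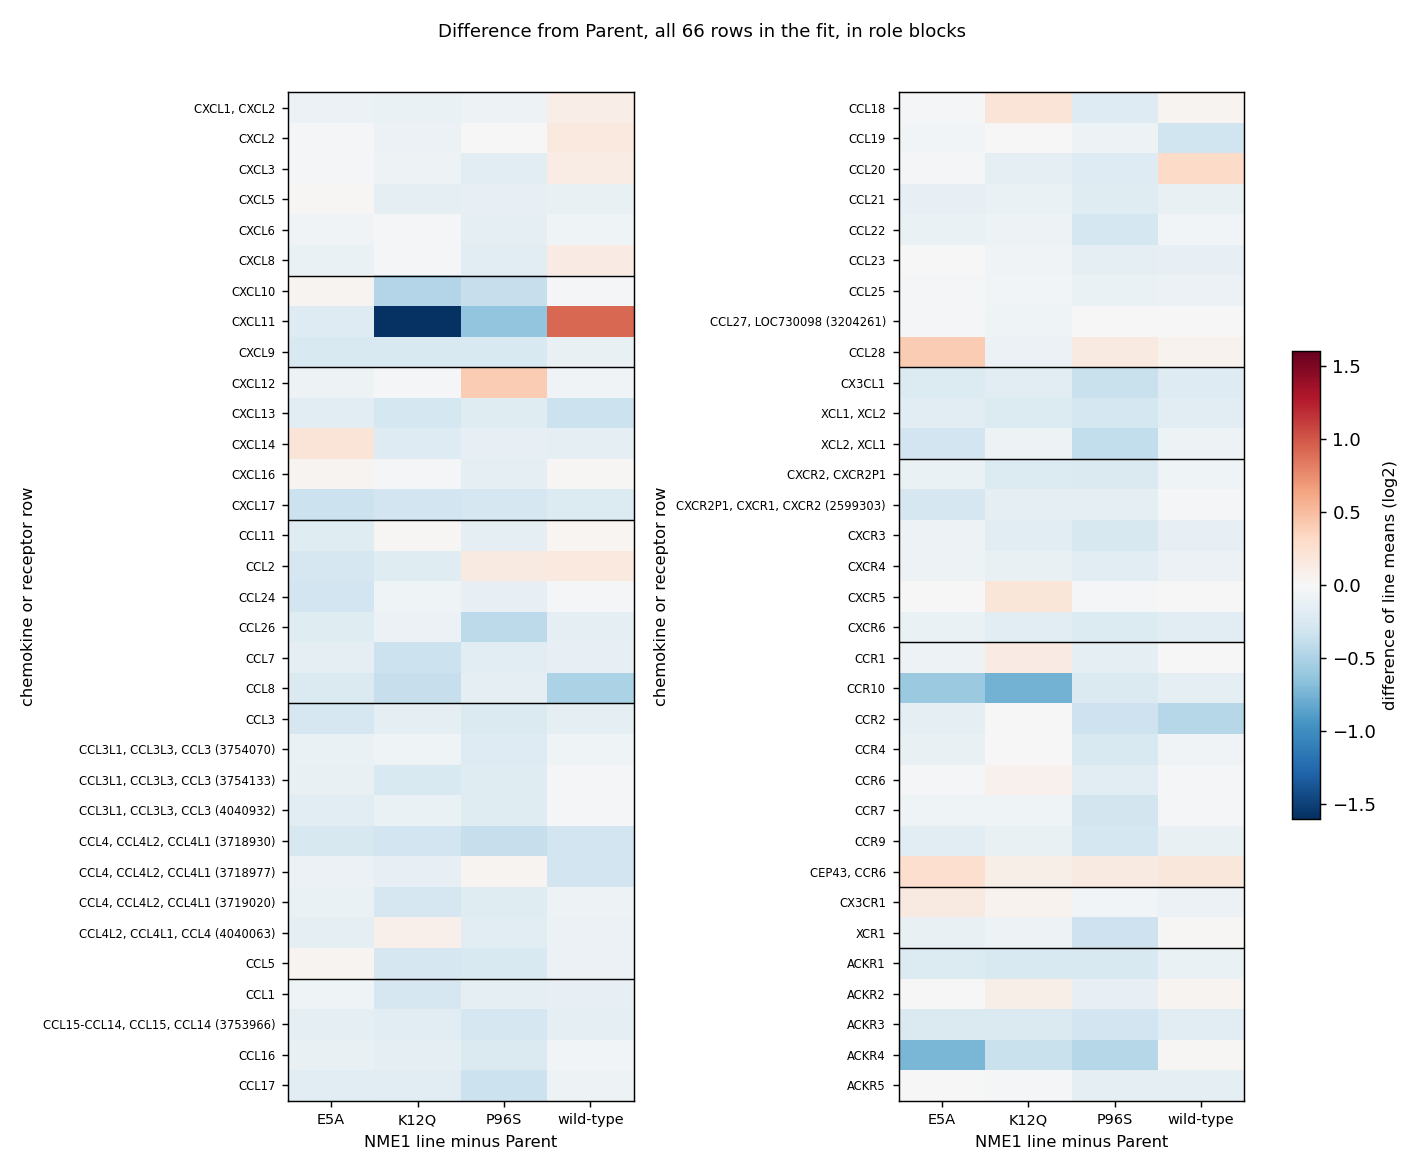
Colours give the difference of each NME1 line from Parent, in log2 units, for the 66 chemokine rows, ordered by role with black lines between the roles and with row numbers where several rows share symbols. The deepest colours are those of CXCL11, at -1.58 in NME1-K12Q and 0.92 in NME1-wild-type, and most other rows are slightly below 0.

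Most rows lay slightly below Parent. The median difference of the 66 rows from Parent was -0.11 in NME1-E5A, -0.11 in NME1-K12Q, -0.19 in NME1-P96S and -0.08 in NME1-wild-type, beside -0.04, -0.05, -0.06 and -0.03 for all features. The number of rows with a positive difference was 12, 11, 5 and 18 of 66. The median level of the 66 rows moved with the spread of the array: it was 5.29 on Parent replicate 2, the array of narrowest spread, and 4.32 on NME1-P96S replicate 2, the array of widest spread. With the interquartile range of each array in the model, the median differences from Parent were -0.001, -0.04, 0.02 and 0.01 in the same order. These medians carry no test.

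Genes that act with chemokines were read from lists of related genes. By the F-test, 0 of 4 further chemokine family genes, 0 of 32 genes of receptor signalling, 0 of 39 genes of the NF-kappa-B pathway and its inducers and 0 of 14 genes of the interferon pathway passed. Nor did any of these pass in a single pair of lines. RAC1, a driver of cell migration, had means of 10.91, 10.78, 10.87 and 10.99 in NME1-E5A, NME1-K12Q, NME1-P96S and NME1-wild-type, against 10.86 in Parent, and GNB1, a G protein subunit, differed from Parent by -0.02 to 0.08. The interferon gamma receptor subunit IFNGR2 had 9.27, 9.31, 9.29 and 9.30, against 9.25 in Parent, and the interferon kinase JAK1 differed from Parent by 0.05 to 0.16.

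IL1B, a cytokine that activates NF-kappa-B, had means of 11.38, 11.89, 11.46 and 11.83 in NME1-E5A, NME1-K12Q, NME1-P96S and NME1-wild-type, against 11.51 in Parent, with no limma adjusted p below 0.467. ICAM1, a target of NF-kappa-B, differed from Parent by 0.15, 0.02, 0.15 and -0.08. Among the further family genes, CKLF differed from Parent by 0.003 to 0.29 and PITPNM3 by -0.20 to 0.01.

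Among 22 genes that display or trim chemokines, 3 passed the F-test, all of them metalloproteinases, beside 0.582% of all features. The list was chosen with earlier results of these data known, so its count is no independent support. MMP8, a neutrophil collagenase, rose in NME1-P96S to 9.67, against 8.65 in Parent, a difference of 1.02 (limma adjusted p = 0.0139), and was lower in NME1-K12Q than in NME1-P96S (-0.82, limma adjusted p = 0.0303). MMP9, a gelatinase known to cut several chemokines, rose in NME1-E5A to 6.96, against 6.25 in NME1-wild-type (0.71, limma adjusted p = 0.0424), and was higher in NME1-E5A than in NME1-P96S (0.78, limma adjusted p = 0.0159). MMP3, stromelysin, fell in NME1-E5A to 5.25, against 6.50 in NME1-wild-type (-1.25, limma adjusted p = 8.86e-05), and in NME1-P96S by -0.75 (limma adjusted p = 0.0205). It was also lower in NME1-E5A than in NME1-K12Q (-1.41, limma adjusted p = 1.58e-05) and higher in NME1-K12Q than in NME1-P96S (0.91, limma adjusted p = 0.00312). Against the other reference line these genes were not called. MMP8 in NME1-P96S differed from NME1-wild-type by 0.70 (limma adjusted p = 0.125). MMP9 in NME1-E5A differed from Parent by 0.65 (limma adjusted p = 0.0736). MMP3 was called in no line against Parent, with -0.62 in NME1-E5A (limma adjusted p = 0.0736). MMP1 and MMP2 did not pass, and their line means lay between 12.1 and 12.5 and between 11.2 and 11.5.

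Of 10 measured hypoxia response genes, a response known to raise some chemokine receptors, 2 passed the F-test, beside 0.582% of all features. This list, too, was chosen with earlier results of these data known, so its count is no independent support. PDK1 and BNIP3 both rose in NME1-E5A, the line in which ACKR4 fell, relative to Parent, where 0.218% of all features were called. PDK1 averaged 9.42 in NME1-E5A, against 8.10 in Parent (1.32, limma adjusted p = 0.00586), and BNIP3 10.6, against 9.49 (1.13, limma adjusted p = 0.00107). BNIP3 was also higher in NME1-E5A than in NME1-K12Q (0.83, limma adjusted p = 0.0252) and NME1-P96S (0.87, limma adjusted p = 0.0124). NDRG1 and HIF1A were not called, and differed from Parent by -0.13 to 0.36 and 0.09 to 0.33. Neither PDK1 nor BNIP3 was called in NME1-E5A against NME1-wild-type, the other pair in which ACKR4 fell (limma adjusted p = 0.16 for PDK1 and 0.262 for BNIP3). Their part in the ACKR4 difference was not tested.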

How the data were processed

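Gene expression in 5 lines with 4 arrays each (20 arrays) was read from the authors' deposited log2 values, which were normalised with RMA, per the labels' series design. The submitters' processing notes also name limma, with no version; the genome build is not given in the sources used here. Rows were named from the platform annotation: 14733 had 1 symbol, 2875 several, and 1100 were not listed. For genes with several rows the row of highest mean was kept, which left 18385 features and left out 323 rows. The fit was limma (3.58.1, R 4.3.3) over all arrays with a mean per line, 15 residual degrees of freedom, and Benjamini-Hochberg adjustment over all features; it was tested on simulated data. Pairs called at adjusted p under 0.05 and 1.5-fold were also given an exact two-sided permutation test. Array number limits precision, and no sequencing depth applies. The members, lists and alternatives were chosen with earlier results of these data known. Values on every array were given for the 12 members of lowest F-test p-value, and related lists by up to 3 called genes and the 2 of highest mean not called; CXCL2, CXCL3, CXCL8, CCL20 and other members are given by their line means. Arrays of the same number deviated together, every correlation exceeding 0.1, in NME1-K12Q against NME1-wild-type (0.234 to 0.512) and NME1-wild-type against Parent (0.105 to 0.397); the pairing there comes from the data, not from the labels. The alternatives were quantile normalisation, median centring, array spread as a covariate, array weights, all rows, a filter on low values, fits on 2 lines, limma treat, the replicate number as a block, and leaving out arrays.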

Additional observations from a re-analysis of the deposited data

Results flagged for a closer look

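In 60 groups of 4 arrays (12 members with values on every array, 5 lines each), 3 held an array far from the rest by Dixon's criterion, and chance gives about 1 in 20. ACKR4 in NME1-E5A replicate 1 was 4.50, while the next array was 4.03. ACKR4 in NME1-P96S replicate 3 was 4.22, while the next was 4.47. CXCL14 in NME1-P96S replicate 3, an array of narrow spread, was 6.58, while the next was 5.74.

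Some NME1 lines differed from each other in their distance from Parent, as shown by the direct comparison of the lines. ACKR4 differed between NME1-E5A and NME1-wild-type by -0.75, CXCL11 between NME1-K12Q and NME1-wild-type by -2.49, and CXCL11 between NME1-P96S and NME1-wild-type by -1.55. Each had an exact two-sided permutation p of 0.0286, the smallest possible, in a test run only on pairs already called from the same arrays.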

How the results depend on the processing

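No called value changed direction under the alternatives run, while the untested medians of the 66 rows against Parent lay on either side of 0. Alternatives for the count over the 5 lines, the related lists and the medians were added after the data were seen. The CXCL11 F-test call held in 27 of 27 alternatives (adjusted p from 0.000185 to 0.0136) and its NME1-K12Q against NME1-wild-type call in 28 of 29 (differences from -2.72 to -2.11), while its NME1-P96S against NME1-wild-type call held in 6 of 29 (-1.78 to -1.01). The ACKR4 F-test call held in 11 of 27, its call in NME1-E5A against Parent in 17 of 29 (-0.86 to -0.61) and that against NME1-wild-type in 15 of 29 (-0.87 to -0.67).

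Of the 66 rows, the F-test called 2 in the reported setting, 1 after median centring, 7 with array quality weights (CXCL11, ACKR4, CCR2, CXCL14, CCL18, CCL5 and CCL2), 0 under the filter on the mean, which removes both genes, and 1 to 2 without single arrays. Quantile normalisation also gave 2, with CXCL12 in place of ACKR4. Related genes called numbered 5, against 3 after centring, 13 with the interquartile range as covariate, 16 with weights and 2 to 5 without single arrays.

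The single call in NME1-E5A against Parent and in NME1-E5A against NME1-wild-type went to 0 under quantile normalisation, centring, the filter, a fit on the 2 lines alone and limma treat, and was 0 to 1 without single arrays. In NME1-P96S against NME1-wild-type it went to 0 under those 5, with weights and without the 3 arrays of narrowest spread, and was 0 to 1 without single arrays. In NME1-K12Q against NME1-wild-type it went to 0 under the filter and limma treat (adjusted p = 0.0788). Calls were gained with weights in NME1-K12Q against Parent (1), NME1-P96S against Parent (3) and NME1-K12Q against NME1-P96S (1). In NME1-E5A against NME1-K12Q they were 1 with the covariate and with weights, and 0 to 1 without single arrays. The cause of these changes was not tested.

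In 8 of the 10 pairs of lines the replicate numbers were not taken as pairing the arrays, since not every same-number correlation exceeded 0.1; over all pairs 25 of 40 did, with a range of -0.849 to 0.810. Arrays of the same number nevertheless tended to deviate together, with a median correlation of 0.235 against -0.054 for different numbers, and 11 of 20 arrays correlated best with their own number. With the replicate number as a block, CXCL11, NME1-P96S against NME1-wild-type, had a limma adjusted p of 0.0528 and was not called, leaving 0 rows there, and no other call of a chemokine row changed.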
